A study of Homo sapiens with 4 samples.

Results

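The 9 genes described here supply deoxynucleotides for DNA synthesis: RRM1, RRM2, TYMS, TK1, DUT, DTYMK, DCK, CTPS1 and CAD. They were measured by 27 of the 49293 probe sets of the array, namely every probe set that the platform annotation gave to 1 gene among them, under a current or an older symbol. Of these, 25 carried the current symbol and 2 carried C2orf48, which RefSeq now lists as an older symbol of RRM2. The cells were of the established line SCC-15, from a human squamous cell carcinoma of the tongue. In 1 group (mimic, 2 arrays) they had been transfected with a synthetic microRNA mimic, and in the other (control, 2 arrays) with miR-NC, a negative control oligonucleotide. Both groups were treated 24 h after seeding at 30 nM and collected 36 h after transfection, and biotinylated cRNA from 2 µg of total RNA was hybridised to 1-colour Affymetrix arrays. No untransfected cells are among the arrays, so what both groups share through transfection cannot be seen. Nothing in the labels said that replicate arrays came from separate cultures, so the spread behind each p-value is that between arrays and may be technical.

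The sources named the mimic differently: miR-762 in the series title and design text, and miR-585-5p in the labels of both mimic samples. The mature human sequences of both, from RefSeq (GRCh38.p14), are shown because the name decides which seed the cells received. Capitals mark the seed, bases 2 to 8.
hsa-miR-762: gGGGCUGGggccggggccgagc
hsa-miR-585-5p: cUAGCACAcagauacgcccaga
The seeds differ, GGGCUGG against UAGCACA, and no value below depends on which name is right. The mature sequences lie at chr16:30893951-30893972 (plus strand) and chr5:169263649-169263670 (minus strand).

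DNA synthesis needs a balanced supply of the 4 deoxynucleoside triphosphates. Ribonucleotide reductase, built from RRM1 and RRM2 subunits, turns ribonucleotides into deoxyribonucleotides. Thymidylate is made from dUMP by thymidylate synthase (TYMS) or salvaged from thymidine by TK1, and DTYMK passes it on towards dTTP. DUT removes dUTP, which keeps uracil out of DNA and provides dUMP. CAD starts pyrimidine synthesis, CTPS1 makes CTP, and DCK salvages deoxycytidine and other deoxynucleosides. Several of these genes are known for transcription that peaks around S phase, so a level in a culture depends on how many of its cells replicate DNA. In bulk RNA of this kind, more cells of a phase and more RNA per cell cannot be told apart.

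DUT, RRM1 and CAD rose in the mimic arrays, and no other gene of the 9 passed the test in either direction. DUT rose 1.93-fold, RRM1 1.46-fold and CAD 1.35-fold (limma, Benjamini-Hochberg adjusted p under 0.05 over the 14340 genes tested, each gene by the brightest of its probe sets over all arrays). All 9 genes were bright enough to be tested. The 3 genes called of 9 stand beside 30.1% of all genes called in either direction and 17.7% called higher, so the share called in either direction is close to that of the array as a whole. None of the 9 was called lower, where 12.3% of all genes were, and at an unadjusted p under 0.05 6 of 9 were higher and 0 lower, where 23.8% of all genes were higher and 21.2% lower. The median difference (log2 intensity, mimic minus control throughout) was 0.26 for the 9 genes and -0.02 for all genes tested. Differences were positive in 8 of the 9 genes and in 46.8% of all genes. After a further quantile normalization they were positive in 7 of the 9, with a median of 0.16, and the median of all genes was -0.07. That step turned the higher share of all calls from 59.0% into 44.0%, and DUT, RRM1 and CAD were called higher with it too. All 9 genes lay above the median level of each array, so brighter genes were also taken alone. With the lowest 50% of means left out, the median was 0.26 for the 9 genes and 0.01 for all genes. There 24.6% of all genes and 4 of the 9 (DUT, RRM1, CAD and DCK) were called higher.

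Each array was also left out in turn. With either mimic array removed, nothing on the whole array passed in limma (lowest adjusted p = 0.0541 and 0.0556), so the lack of calls there says nothing about the 9 genes. Their median was then 0.27 and 0.29, and 3 of the 9 had an unadjusted p under 0.05 in each case, where 29.2% and 29.7% of all genes did. Without control replicate 1 only DUT of the 9 passed and the median was 0.15, with 4.24% of all genes called higher. Without control replicate 2 DUT and RRM1 passed and the median was 0.35, with 5.78% of all genes called higher.

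**Figure D1:**
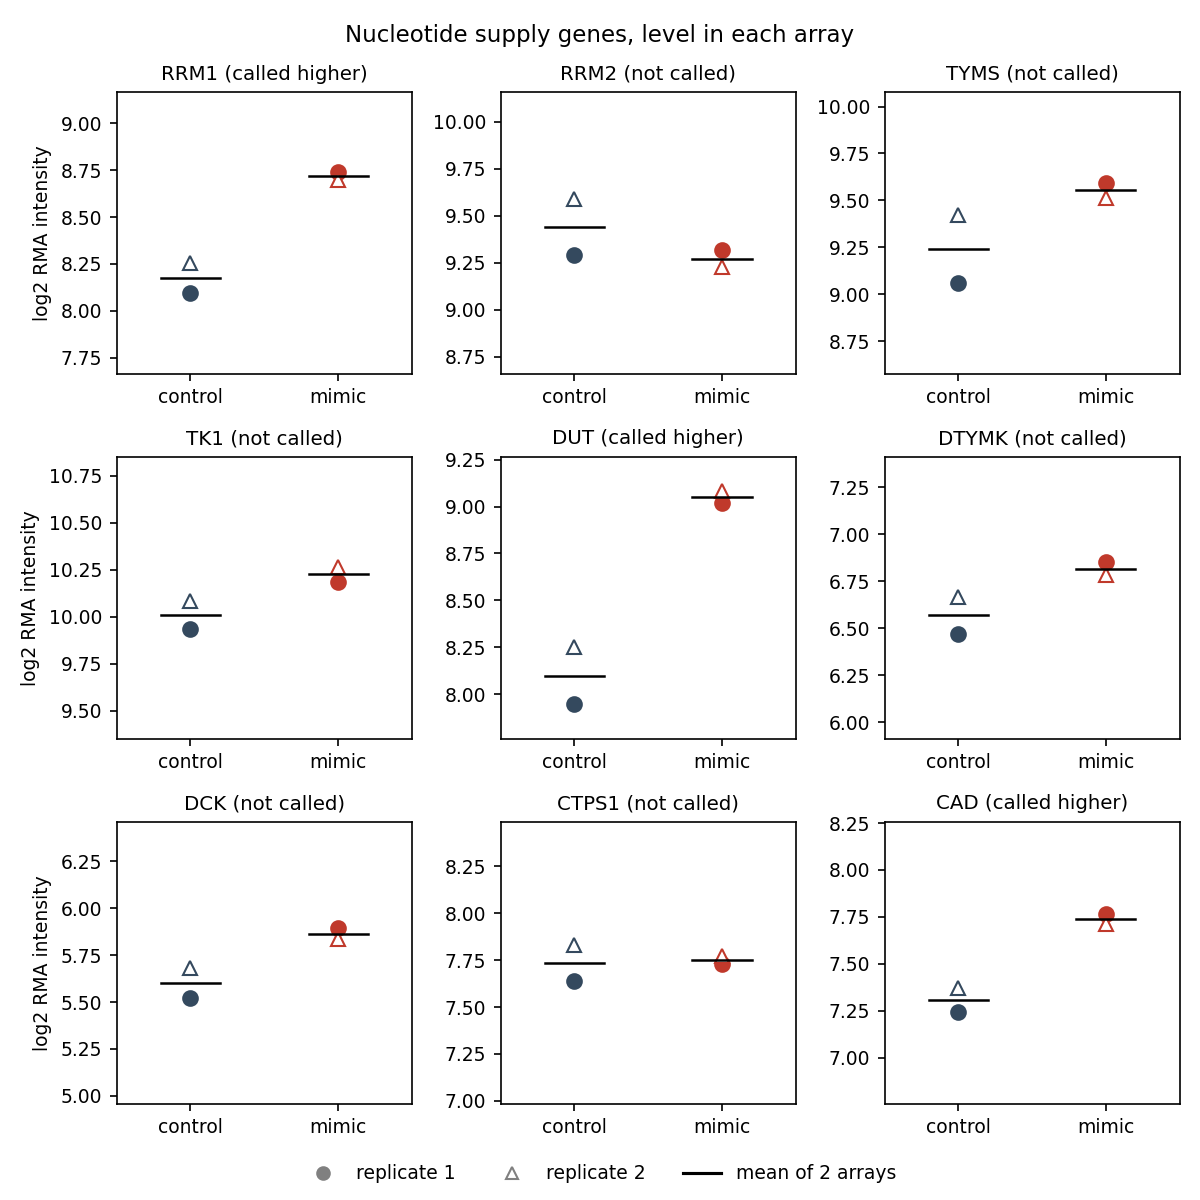
Log2 RMA intensity (vertical axis, the same span of 1.5 in each panel) of the 9 genes in control and mimic arrays. Circles are replicate 1, triangles replicate 2 and bars the mean of 2 arrays. In DUT, RRM1 and CAD both mimic arrays lie well above both controls, and in all 9 panels control replicate 2 lies above control replicate 1.

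Ribonucleotide reductase subunits come first. RRM1, the large subunit that holds the catalytic and allosteric sites, lies at chr11:4094685-4138932. Its log2 level was 8.74 and 8.70 in mimic replicates 1 and 2 and 8.09 and 8.25 in control replicates 1 and 2. Both mimic arrays were above both controls, and the difference was 0.54 ± 0.076 (SE, limma adjusted p = 0.00924). On leaving out control replicate 1 it no longer passed (0.46, adjusted p = 0.0559). The difference was 0.52 without mimic replicate 1 and 0.56 without mimic replicate 2, where nothing on the array passed. RRM1 had 4 probe sets, and all of them were called higher when every probe set was tested on its own, with differences between 0.53 and 0.60. The dimmest of them was at 4.21 and 4.32 against 3.57 and 3.76, which gave the largest difference of the 4, so the RRM1 result did not rest on a choice of probe set.

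RRM2, the small subunit that carries the radical and is the subunit degraded outside S phase, did not pass the test (chr2:10122568-10211010). Its brightest probe set was at 9.32 and 9.23 in the mimic arrays and at 9.29 and 9.59 in the controls. The groups overlapped, with mimic replicate 1 between the 2 controls. The difference was -0.17 ± 0.11 (limma adjusted p = 0.302), with a 95% interval from -0.46 to 0.12. A second probe set had the opposite sign, at 8.61 and 8.59 against 8.09 and 8.61 (0.25), and the mean over both was 0.04, so the sign for RRM2 turned with the probe set. The controls were 0.30 and 0.51 apart on these probe sets. The 2 probe sets under the older symbol C2orf48 had means over the 4 arrays below the limit for dim values (2.83 on the log2 scale, an intensity of 7.10), under which nothing was tested. Their levels ran from 1.30 to 2.58 in the mimic arrays and from 1.47 to 2.89 in the controls.

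The log2 ratio of the RRM1 to the RRM2 probe set, taken within each array, was -0.58 and -0.53 in the mimic arrays and -1.20 and -1.34 in the controls. The ratio was thus higher by 0.71 in the mimic arrays, with no overlap between groups. An exact permutation test of 2 against 2 arrays gave a two-sided p = 0.333, the smallest it can give. With the second RRM2 probe set the ratio was 0.12 and 0.10 in the mimic arrays and 0.00 and -0.35 in the controls, a difference of 0.29, so its size turned on the RRM2 probe set used. A ratio shows unequal change of 2 probe sets, not how many subunits of each kind were present.

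DUT encodes dUTPase, in a nuclear and a mitochondrial form that begin at different first exons, and lies at chr15:48331095-48343373. The log2 level of its brightest probe set was 9.02 and 9.08 in the mimic arrays and 7.95 and 8.25 in the controls. The lower mimic array was above the higher control by more than the controls differed from each other. The difference was 0.95 ± 0.11 (SE, limma adjusted p = 0.00624), which placed DUT at rank 338 among the 2544 genes called higher. DUT was called in every alternative except those that left out a mimic array, where no gene of the array passed (0.98 and 0.92, adjusted p = 0.0797 and 0.0889).

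All 4 DUT probe sets were called higher, but by different amounts. The second brightest was at 7.71 and 7.61 against 6.44 and 6.82, a difference of 1.03. The third was at 7.67 and 7.82 against 5.81 and 5.75, a difference of 1.97 or 3.91-fold. The dimmest was at 5.72 and 5.77 against 5.13 and 5.06, a difference of 0.65. Thus mimic lay above control without overlap for every DUT probe set, as it did in 10580 of all 31711 probe sets tested. In DUT, 1 probe set showed about 1 log2 unit more than the brightest. The log2 ratio of that probe set, taken because its difference was the largest, to the brightest was -1.35 and -1.26 in the mimic arrays and -2.14 and -2.51 in the controls. That is a description only, because the probe set was picked for its difference. An exact permutation test gave p = 0.333, the smallest it can give with 2 against 2 arrays, so it decides nothing. Probe sequences were not used here, so no probe set is assigned to the nuclear or the mitochondrial form. The 2 brightest had control gaps (replicate 2 minus 1) of 0.31 and 0.38, and the other 2 had gaps of -0.06 and -0.06.

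**Figure D2:**
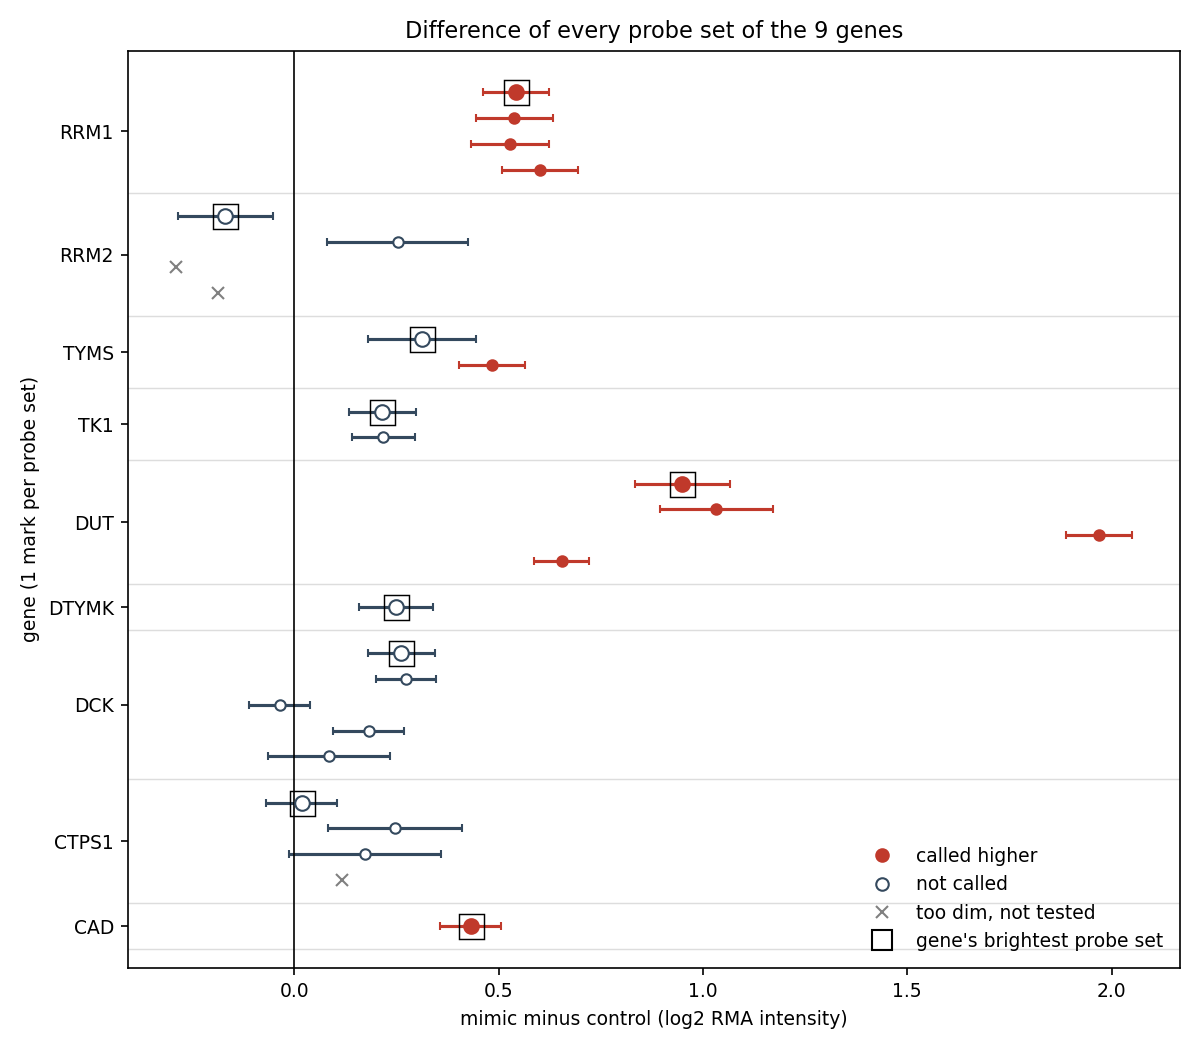
Mimic minus control on the log2 scale (horizontal axis) for each of the 27 probe sets, grouped by gene, with limma's SE as bars. Filled marks were called higher, open marks were not called, crosses were too dim to test, and a square marks the brightest probe set of a gene. All 4 probe sets of RRM1 and all 4 of DUT were called, with 1 DUT probe set at 1.97.

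Over all 27 probe sets, 24 passed the filter on dim values, 10 of these were called higher and 0 lower (limma, adjusted over 31711 probe sets), where 14.5% of all probe sets tested were called higher. At an unadjusted p under 0.05, 15 were higher and 0 lower, where 22.0% of all probe sets were higher and 18.0% lower. The 10 were 4 of DUT, 4 of RRM1, 1 of TYMS and the single one of CAD. Probe sets of a gene share its RNA and are not replicates. On leaving out any 1 array no probe set of the whole array was called in limma (lowest adjusted p from 0.0648 to 0.0843), and 10 to 18 of the 24 had an unadjusted p under 0.05, where 25.3% to 34.0% of all probe sets did.

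The thymidylate genes TYMS, TK1 and DTYMK did not pass by their brightest probe sets, and all 3 had positive differences. TYMS (chr18:657653-673578) was at 9.59 and 9.51 in the mimic arrays and at 9.06 and 9.42 in the controls. The groups did not overlap, but the lower mimic array was only just above control replicate 2. The difference was 0.31 ± 0.13 (limma adjusted p = 0.129), from 0.13 without control replicate 1 to 0.49 without control replicate 2. A dimmer TYMS probe set, at 4.44 and 4.47 against 3.89 and 4.05, was called higher (0.48 ± 0.081, adjusted p = 0.018 over probe sets), and TYMS was called when its probe sets were averaged (0.40, adjusted p = 0.0338). TYMS overlaps TYMSOS, a gene on the opposite strand.

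TK1, the cytosolic thymidine kinase (chr17:78174079-78187204), was at 10.19 and 10.27 in the mimic arrays and at 9.94 and 10.08 in the controls. The groups did not overlap and the difference was 0.22 ± 0.077 (limma adjusted p = 0.0909, 95% interval 0.02 to 0.41). Its second probe set gave the same difference to 2 decimals, 0.22. TK1 passed with a variance prior that depends on level (adjusted p = 0.0227) and with 16 added to each intensity (adjusted p = 0.044). After quantile normalization its difference was 0.16 (limma adjusted p = 0.158). DTYMK, the thymidylate kinase of chr2:241675747-241686815, had 1 probe set, at 6.85 and 6.78 against 6.47 and 6.67. Its groups did not overlap, and the difference of 0.25 ± 0.087 did not pass (limma adjusted p = 0.0857). It passed with 16 added to each intensity (0.22, adjusted p = 0.0488), and was 0.15 after quantile normalization (limma adjusted p = 0.225).

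CAD, the enzyme with the first 3 activities of pyrimidine synthesis, was measured by 1 probe set (chr2:27217369-27243943). Its log2 level was 7.76 and 7.71 in the mimic arrays and 7.25 and 7.37 in the controls. The groups were separate, with a control gap of 0.12, the smallest of the 9 genes. CAD rose by 0.43 ± 0.070 (SE, limma adjusted p = 0.0134). On leaving out 1 array it did not pass, with values from 0.37 to 0.49 and adjusted p-values from 0.054 to 0.116. No gene of the array passed without a mimic array.

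CTPS1, which makes CTP from UTP (chr1:40979696-41012565), was at 7.73 and 7.77 in the mimic arrays and at 7.64 and 7.83 in the controls. Both mimic arrays lay between the controls, and the difference was 0.02 ± 0.084 (limma adjusted p = 0.89, 95% interval -0.20 to 0.23), with a negative sign after quantile normalization (-0.066). Of its 4 probe sets, 1 was too dim to test, and the other 2 gave 0.25 and 0.17 with control gaps of 0.48 and 0.51. None was called.

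DCK, the deoxycytidine kinase (chr4:70993649-71030914), had 5 probe sets. The brightest was at 5.90 and 5.83 in the mimic arrays and at 5.52 and 5.68 in the controls. The groups did not overlap, and the difference of 0.26 ± 0.077 just missed the threshold (limma adjusted p = 0.0591, 95% interval 0.06 to 0.46). It passed in 4 of 13 alternatives, with adjusted p-values from 0.0369 to 0.0491. The difference was 0.16 after quantile normalization and 0.15 with probe sets averaged (limma adjusted p = 0.174 and 0.175). The other probe sets ran from -0.04 to 0.27, and none was called.

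The controls differed from each other in the same direction for every gene of the 9. Control replicate 2 was above control replicate 1 by 0.12 to 0.36, with a median of 0.19, while the median over all genes tested was 0.02 and 56.8% of all genes had the same sign. By probe set, the sign was the same in 25 of 27, the exceptions being 2 of DUT. The mimic arrays differed by -0.09 to 0.08, with replicate 2 higher in 3 of the 9 genes. The gap between controls was therefore larger than the difference between groups for RRM2, TYMS and CTPS1, and smaller for DUT, RRM1, CAD, TK1, DTYMK and DCK. Groups did not overlap, with mimic above, in 7 of the 9 genes, where 34.2% of all genes tested lay that way. What made control replicate 2 higher was not tested.

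**Figure D3:**
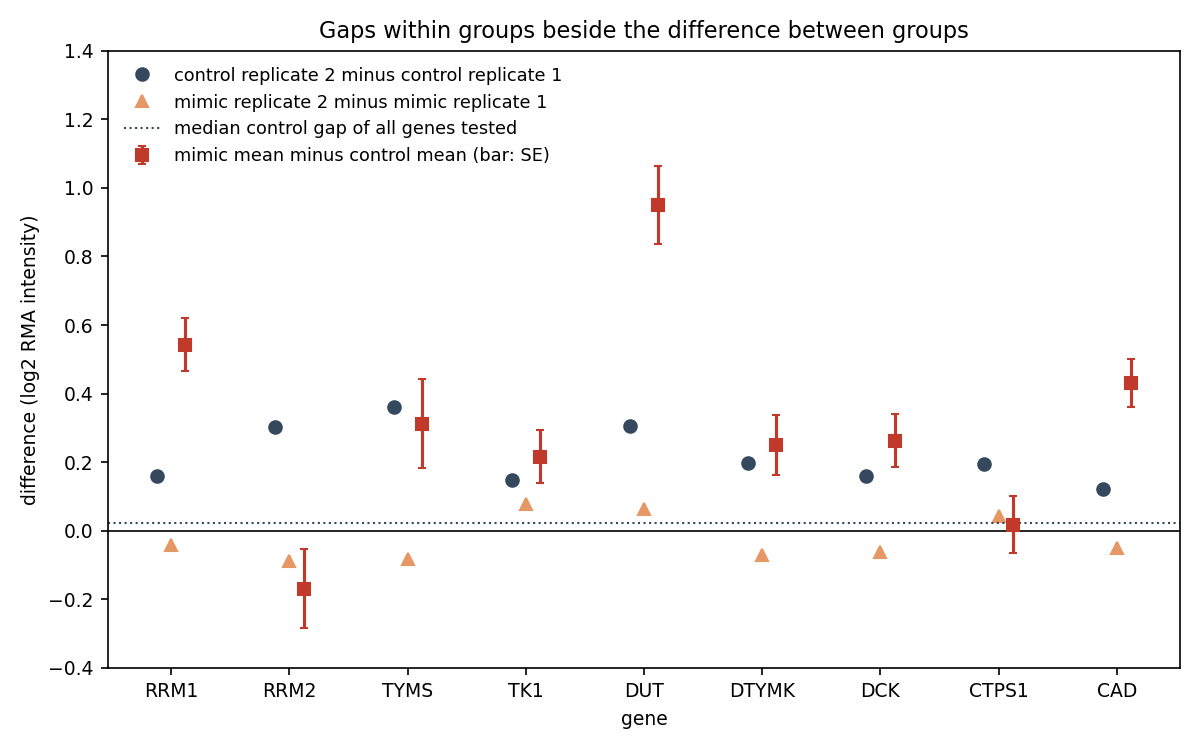
Differences on the log2 scale (vertical axis) for each of the 9 genes. Dots show control replicate 2 minus 1, triangles mimic replicate 2 minus 1, and squares the mimic mean minus the control mean with limma's SE, while the dotted line is the median control gap of all genes. Every dot is above 0, between 0.12 and 0.36, and the squares of DUT, RRM1 and CAD lie furthest above their dots.

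The array profile of DUT was compared with all other genes, as the Euclidean distance between log2 levels centred on the mean of the 4 arrays. The nearest 5 genes were CENPV (distance 0.017), TROAP (0.050), MTFR2 (0.064), KIF18A (0.066) and B4GALT6 (0.079). Their differences were between 0.90 and 1.03, each with a control gap between 0.24 and 0.32 like that of DUT. This likeness follows from picking the genes by nearness, which over 4 arrays is a description only.

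The promoters of the 3 genes called higher are shown to set their sequences side by side, as the 250 bases before a RefSeq start site (GRCh38.p14, plus strand, 5′ to 3′). The letters searched, on both strands, were those of E2F-type sites (TTTCCCGC, TTTCGCGC, TTTGCCGC or TTTGGCGC), the CCAAT box (CCAAT), the cell cycle homology region (TTTGAA) and the E-box (CACGTG). Capitals mark the matches, and none of the matches shown overlap. The DUT window is that of the most downstream of its 4 start sites, and the other DUT windows held no match to any of these letters.
RRM1, chr11:4094435-4094684: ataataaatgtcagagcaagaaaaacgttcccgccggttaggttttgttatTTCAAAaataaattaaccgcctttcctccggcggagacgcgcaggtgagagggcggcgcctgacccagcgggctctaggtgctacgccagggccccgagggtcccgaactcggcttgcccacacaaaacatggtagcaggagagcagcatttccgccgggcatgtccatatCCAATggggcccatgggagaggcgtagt
DUT, chr15:48331947-48332196: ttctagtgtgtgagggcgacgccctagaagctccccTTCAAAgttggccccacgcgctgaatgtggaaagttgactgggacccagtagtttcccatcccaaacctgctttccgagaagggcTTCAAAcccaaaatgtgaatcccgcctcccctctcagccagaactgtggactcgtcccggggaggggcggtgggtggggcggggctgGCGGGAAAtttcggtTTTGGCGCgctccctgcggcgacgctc
CAD, chr2:27217119-27217368: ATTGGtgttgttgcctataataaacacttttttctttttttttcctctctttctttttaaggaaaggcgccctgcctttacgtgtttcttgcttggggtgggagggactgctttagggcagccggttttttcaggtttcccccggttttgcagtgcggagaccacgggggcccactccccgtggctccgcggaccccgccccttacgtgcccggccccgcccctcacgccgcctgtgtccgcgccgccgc
E2F factors drive many S phase genes. The DUT window held 2 E2F-type matches, TTTCCCGC on the opposite strand starting 42 bases before the start and TTTGGCGC starting 27 bases before it. Of all 35116 promoter windows of this length, 2.79% held such a match. Of the 15 windows of the 9 genes, 2 held one, the DUT window and that of TYMS, and none of RRM1 or CAD did. The CCAAT box was in 6 of the 15 windows (those of RRM1, RRM2, TK1, DTYMK and CAD), and in 32% of all windows. TTTGAA was in 2 of the 15, of DUT and RRM1 (13.3% of all windows). CACGTG was in 1 of the 15, that of DCK (6.34% of all windows). TTTGAA was thus found only in genes called higher, but not in CAD. None of these motifs was in windows of all 3 genes called, and a match of letters is not a bound site.

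Most other genes of nucleotide metabolism did not pass the test, and those that did mostly rose. Of 64 genes in 5 lists, 58 were tested, 15 rose, 5 fell and 38 did not pass (limma), with a median of 0.15 against -0.02 for all genes. With 17.7% of all genes called higher and 12.3% lower, these shares were 25.9% and 8.62%. Without control replicate 1 or 2, 2 and 5 of the 58 passed as higher and 1 and 1 as lower. Without mimic replicate 1 or 2 none passed in limma, as for every gene of the array, and 20 and 17 had an unadjusted p under 0.05, beside 29.2% and 29.7% of all genes. The other 6 were not analysed here.

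Purine synthesis builds the purine ring on phosphoribosyl pyrophosphate. Of 12 genes tested, 3 rose and 1 fell, with a median of 0.18. ADSS1, an adenylosuccinate synthase, was at 6.17 and 6.24 against 5.25 and 5.19 (0.99 ± 0.062 SE, limma adjusted p = 0.00151). PRPS2, which makes phosphoribosyl pyrophosphate, rose by 0.47, and its second probe set gave 0.10. PPAT, which starts the pathway, rose by 0.22. PRPS1, the paralog of PRPS2, fell by 0.29, from 9.18 and 9.30 in the controls to 8.93 and 8.97, and its second probe set gave -0.02. The 8 others had differences from 0.09 to 0.20.

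The 5 other pyrimidine genes did not pass, with 1 higher and 0 lower at an unadjusted p under 0.05. UMPS, which completes UMP, had a difference of 0.19 (limma adjusted p = 0.0707), with probe sets from 0.03 to 0.31. DCTD, the dCMP deaminase, had a difference of 0.11, with probe sets from -0.06 to 0.43. CTPS2, the paralog of CTPS1, had a difference of 0.10 (limma adjusted p = 0.272), and its other probe set gave 0.38. Of 9 folate genes, which carry the carbon units for thymidylate and purines, 3 rose and 0 fell, with a median of 0.17. MTHFD1L, a mitochondrial folate enzyme, rose by 0.51 (7.65 and 7.71 against 7.13 and 7.20), and another of its probe sets gave 0.10. SHMT1, the cytosolic serine hydroxymethyltransferase, rose by 0.30, and 2 of its 5 probe sets were below 0.

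**Figure D4:**
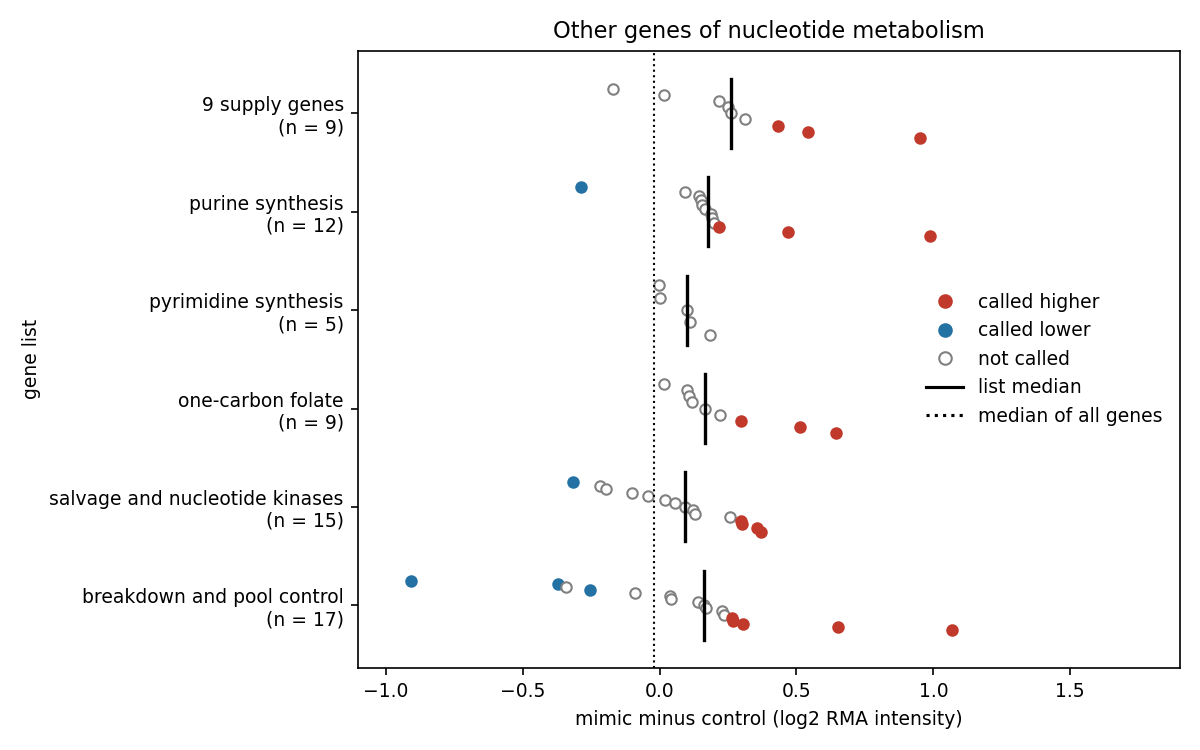
Mimic minus control on the log2 scale (horizontal axis) for the 9 supply genes and 5 lists of other nucleotide genes, 1 point per gene. Filled points were called higher (red) or lower (blue), bars are list medians and the dotted line is the median of all genes at -0.02. All 5 list medians are above that line, between 0.09 and 0.18, and the supply genes' median is 0.26.

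Salvage enzymes, nucleotide kinases and transporters went both ways. Of 15 tested, 4 rose and 1 fell, with a median of 0.09. The mitochondrial nucleoside diphosphate kinase gene NME4 rose by 0.37, the nucleoside transporter gene SLC29A1 by 0.36 (its other probe set gave -0.34) and the adenine salvage gene APRT by 0.30. ADK, the adenosine kinase, fell by 0.32, from 9.58 and 9.56 to 9.27 and 9.24, and its other probe set gave -0.05. TK2, the mitochondrial counterpart of TK1, had a difference of 0.06 (limma adjusted p = 0.698), and 2 of its 3 probe sets were below 0.

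Breakdown and pool control genes held the largest rise and the largest fall of the 5 lists. Of 17 tested, 5 rose and 3 fell, with a median of 0.16. NT5E, the cell surface nucleotidase CD73, rose by 1.07 ± 0.12 (SE, limma adjusted p = 0.00529), from 4.65 and 4.92 to 5.76 and 5.95, although its other probe set gave 0.03. NT5M, a mitochondrial deoxynucleotidase gene, rose by 0.65. DPYD, which starts pyrimidine breakdown, fell by 0.91 ± 0.061 (limma adjusted p = 0.00169), from 3.89 and 3.91 to 3.03 and 2.95, the latter close to the limit for dim values. The thymidine phosphorylase gene TYMP fell by 0.37, and its other probe set gave -0.14. SAMHD1, which degrades deoxynucleoside triphosphates, was at 4.94 and 5.09 against 5.65 and 5.07. Its groups overlapped, and the difference of -0.34 came with a control gap of -0.58 (limma adjusted p = 0.236). The other SAMHD1 probe set gave -0.23. RRM2B, the p53-inducible alternative to RRM2, had a difference of 0.14 (limma adjusted p = 0.189). Its 5 probe sets ran from -0.10 to 0.25, with 1 below 0.

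The array facts that bear on these values are few. Deposited intensities ran from 1.62 to 11401, with array medians between 17.2 and 17.5, and replicate arrays correlated across probe sets at r = 0.998 (mimic) and 0.997 (control). The squamous line was checked against markers: 6 of 9 epithelial markers were measured, all between 8.38 and 12.32 on the log2 scale, and 3 of these were called higher. Fibroblast markers were at 4.60 or below and endothelial markers at 5.14 or below, with 4 of 7 and 1 of 6 below the dim level. Of 7 leukocyte markers, 6 were measured, at 6.10 or below, and PTPRC and LYZ were below the dim level. CD14 and CD68 were called higher (0.53 and 0.34), while CSF1R (-0.18) and CD3E (-0.02) were not called. The summed intensity of the 6 measured was 146 and 140 in the mimic arrays and 128 and 113 in the controls. Their part in the results was not tested.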

How the data were processed

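Gene expression was measured in 4 arrays of SCC-15 cells, 2 mimic and 2 control. The authors deposited 1 intensity per probe set and array, made with RMA per the submitters' processing notes (background correction, quantile normalization and a summary per probe set). The RMA software and its version: not given in the sources used here. As deposited, the intensities were linear, so log2 was taken. RMA compresses differences of dim probe sets, and no detection calls were used.

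Genes were named from the platform annotation, with symbols updated through the RefSeq table of GRCh38.p14: of 44988 probe sets with 1 symbol, 44961 matched. Probe sets with several genes (1832) or none (2473), and those in the lowest 30% of mean log2 levels, were left out. Each gene took its brightest probe set over all arrays. The test was limma 3.58.1 (lmFit and eBayes in R 4.3.3), mimic minus control, at an adjusted p under 0.05. Benjamini-Hochberg adjustment was over 14340 genes, or over 31711 probe sets where probe sets are tested. The test was also run on data simulated under limma's own model, which cannot show its error rate on these arrays. SEs are limma's moderated ones, on 4.98 degrees of freedom. With 2 arrays a group, their number limits the precision.

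The 9 genes and the lists were chosen with earlier results of these data known. Named outside the 9 were up to 4 called genes per list with the largest difference (in a list with no called gene, the 2 of largest moderated t), RRM2B, TK2, CTPS2 and SAMHD1, and the 5 genes nearest to the profile of the gene with the largest difference. CD14, CD68, CSF1R and CD3E were named after their values were seen. Some genes that the rule names are not reported here.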

Additional observations from a re-analysis of the deposited data

How the results depend on the processing

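The results were recomputed with other filters on dim probe sets, other choices of probe set, other scalings, 16 added to each intensity, a variance prior with trend, the replicate block and without each array. Of all genes, 17.7% were called higher in the main analysis and 21% with 16 added to each intensity. In the other alternatives that kept all arrays, this share ran from 12% (no filter) to 24.6% (lowest 50% of means left out). Of the 9 genes, 3 were called higher, and this became 6 with 16 added to each intensity (DUT, RRM1, CAD, DCK, TK1 and DTYMK), 3 or 4 in the other alternatives that kept all arrays (8 genes were tested without _s_at and _x_at probe sets, which left out DTYMK), and 0 to 2 on leaving out 1 array. None was called lower in any alternative (on leaving out control replicate 1, RRM2 was lower before adjustment, at p under 0.05). Their median of 0.26 was 0.16 after quantile normalization and 0.15 to 0.35 without 1 array. The sign turned for CTPS1 after quantile normalization (-0.066), without mimic replicate 2 (-0.0037) and without control replicate 1 (-0.079, in a range of -0.079 to 0.11 without 1 array), and for RRM2 with probe sets averaged (0.042). Without 1 array, 0 to 829 genes were called higher and 0 to 176 lower over the array, 0 of the probe sets of the 9 genes were called, and in the 5 lists 0 to 5 genes were called higher and 0 to 1 lower, where the main counts were 2544, 1766, 10, 15 and 5. Fewer arrays were fitted there, and without a mimic array no gene of the array was called, nor any probe set without any 1 array. In the lists, 3 genes were called lower with no filter and 2 with probe sets averaged; the cause was not tested.

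Titles number the replicates alike in both groups, but nothing says that a number marks a shared batch, and deviations of same-numbered arrays were not correlated (r = -0.001). With the replicate block, 979 genes were called lower and 1939 higher, and in the lists 8 were higher and 3 lower. DUT, RRM1 and CAD were called with the block too.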
